A study of Mus musculus with 12 samples.

Results

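The livers of 6 mice were read here for 10 genes of nuclear receptors, namely Nr1h4 (FXR), Nr1h3 (LXR alpha), Nr1i2 (PXR), Nr1i3 (CAR), Nr0b2 (Shp), Hnf4a, Nr5a2 (LRH-1), Rxra, Esr1 and Ppard. They were chosen by name, as the bile acid, oxysterol and xenobiotic receptors of hepatocytes with their partners, and hold 25 of the 34933 RefSeq transcripts listed with an FPKM (fragments per kilobase of transcript, scaled to the number of fragments mapped in the library) and 10 of the 24023 genes to which those transcripts were joined. All mice were male C57BL/6J. Control mice were kept on chow for 28 weeks and had no surgery. Sham and VSG mice received a high-fat diet with 60 kcal% fat from 8 weeks of age, for 14 weeks before and 14 weeks after surgery, with a liquid diet in the first 4 days after it. VSG (vertical sleeve gastrectomy) removed about 80% of the stomach, whereas in the sham operation the stomach was only isolated and pressed with forceps. Diet and surgery thus differed together between Control and the operated groups, and the comparison of VSG with Sham mice was the only one in which the diet was the same. RNA-seq and FAIRE-seq, which recovers DNA free of nucleosomes after formaldehyde fixation, were made from the same livers, with 2 mice in each of the 3 groups.

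Nuclear receptors are transcription factors whose activity is set by small lipid-soluble ligands. FXR binds bile acids, LXR alpha binds oxysterols, and PXR and CAR respond to drugs, bile acids and other foreign or endogenous compounds. Each of these pairs with RXR alpha on DNA built from copies of the half-site AGGTCA. Shp lacks a DNA-binding domain and represses other receptors. In hepatocytes it is induced by FXR and dampens the action of LRH-1 and HNF4 alpha on the bile acid synthesis genes, which links the return of bile acids from the gut to their production. HNF4 alpha maintains the hepatocyte programme, and estrogen receptor alpha and PPAR delta are further ligand-regulated members of the family.

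As a check of the tissue, the hepatocyte markers Ttr, Apoa1, Cps1 and Cyp2e1 were listed in every mouse, with a summed level between 10334 and 19607 FPKM, and the other 2 markers of that list, Alb and Serpina1a, were not matched to a row. No read totals accompany FPKM values. A rough depth relative to Control mouse 1 was taken from genes with 1 listed transcript, above 0 and under 0.3 FPKM in both mice compared. This depth was the most frequent ratio of the FPKM of Control mouse 1 to that of the other mouse. It was 0.818 in Control mouse 2, 0.683 and 1.16 in Sham mice 1 and 2, and 1.57 and 0.901 in VSG mice 1 and 2. The Sham mice were the least alike, with 30.6% of genes at least 2-fold apart, against 16.2% in Control and 24.6% in VSG mice. Sham mouse 1 also held the most implausible zeros: of 3379 genes with at least 10 FPKM in at least 4 mice, 48 were listed at 0 in that mouse, among them Apob, the main protein of very-low-density lipoprotein, and 19 to 28 in each of the others. A value of exactly 0 can be a failed estimate of the quantification program, so that 0 is reported below as listed and not as absence. Transcript length moved with the mouse as well. Genes with transcripts under 1500 bp were high in Sham mouse 1 (median deviation from the mean of the 6 mice, 0.33 log2) and VSG mouse 1 (0.21), and low in Control mouse 2 (-0.22) and Sham mouse 2 (-0.19).

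The promoters of 5 receptors are shown here because the RNA or the FAIRE peaks at their starts are described below: Nr1i2, whose RNA differed most between the groups relative to its error, Nr0b2 and Nr1h4 as the pair linked by bile acids, and Nr1i3 and Nr5a2, whose RNA was listed at 0. Each is the 250 bp before an annotated start in NCBIM37 (mm9), read 5' to 3' on the strand of the gene, with matches in capitals. The letters sought on both strands were the half-site AGGTCA, the core TCAAGG of the LRH-1 site, which overlaps the half-site in the longer site TCAAGGTCA, and GTTAAT, a half-site of HNF1, a hepatocyte factor that is no nuclear receptor. TCAAGG and GTTAAT were added to the search after the sequences had been seen.
Nr1i2, chr16:38294911-38295160, minus strand: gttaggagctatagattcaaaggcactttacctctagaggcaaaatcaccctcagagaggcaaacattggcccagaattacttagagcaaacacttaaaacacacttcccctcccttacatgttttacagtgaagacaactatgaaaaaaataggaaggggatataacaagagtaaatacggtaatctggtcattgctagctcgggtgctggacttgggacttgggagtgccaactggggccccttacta
Nr0b2, chr4:133109041-133109290, plus strand: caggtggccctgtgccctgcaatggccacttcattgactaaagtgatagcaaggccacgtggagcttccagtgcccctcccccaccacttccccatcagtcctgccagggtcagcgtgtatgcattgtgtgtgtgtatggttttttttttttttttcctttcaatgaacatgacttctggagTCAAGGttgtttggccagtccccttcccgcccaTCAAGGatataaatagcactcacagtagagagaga
Nr1h4, chr10:88969404-88969653, minus strand: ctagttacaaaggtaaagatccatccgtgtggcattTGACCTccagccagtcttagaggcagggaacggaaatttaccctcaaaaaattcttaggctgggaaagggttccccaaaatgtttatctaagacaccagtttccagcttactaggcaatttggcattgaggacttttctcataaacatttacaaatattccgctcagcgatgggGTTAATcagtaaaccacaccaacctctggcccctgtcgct
Nr1i3, chr1:173143851-173144100, plus strand: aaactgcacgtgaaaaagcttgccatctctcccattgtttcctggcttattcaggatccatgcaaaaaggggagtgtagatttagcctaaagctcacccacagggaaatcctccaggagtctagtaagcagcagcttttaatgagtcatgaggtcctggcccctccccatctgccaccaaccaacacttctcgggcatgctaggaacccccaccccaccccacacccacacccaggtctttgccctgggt
Nr5a2, chr1:138857005-138857254, minus strand: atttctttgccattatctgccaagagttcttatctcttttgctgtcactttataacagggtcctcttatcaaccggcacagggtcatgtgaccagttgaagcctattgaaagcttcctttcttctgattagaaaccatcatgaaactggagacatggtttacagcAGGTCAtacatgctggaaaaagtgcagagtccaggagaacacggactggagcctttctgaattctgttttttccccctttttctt

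TCAAGG was present in 2 copies before the start of Nr0b2, at positions -68 to -63 and -35 to -30 counted from the start, and 11.9% of all 22219 protein-coding promoters held at least 1 copy in a window of the same length. AGGTCA was read in reverse as TGACCT at -214 to -209 before the downstream start of Nr1h4 and directly at -85 to -80 before Nr5a2, against 12.6% of all promoters. GTTAAT stood at -40 to -35 before the same start of Nr1h4, where 5.75% of all promoters held it. The shares over all promoters came from a single window for each gene, before its most upstream start. At Nr1h4 the window before the upstream start held no AGGTCA, and GTTAAT at -75 to -70. None of the 3 was found in the windows of Nr1i2 and Nr1i3 or before the downstream start of Nr5a2. Of the members not printed here, Hnf4a held each of the 3 before at least 1 of its starts. AGGTCA also stood in 2 copies before the Rxra start at 27564812 of chromosome 2. No window of a member held the full site TCAAGGTCA, 2 direct half-sites spaced by 1 base (AGGTCANAGGTCA) or by 4 bases (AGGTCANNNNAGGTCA), or the HNF4 site CAAAGTCCA. Nor did any hold the inverted repeat AGGTCANTGACCT, on which FXR is known to act. These sites were rare everywhere, so their absence does not set the receptors apart. Of all 22219 promoters, 71 held TCAAGGTCA and 88 the HNF4 site. The direct repeats spaced by 1 and 4 bases were in 11 and 1, and the inverted repeat in 0. The observed to expected ratio of CpG dinucleotides was 0.165 at Nr1i2, 0.194 at Nr0b2, 0.120 at Nr1i3, 0.179 at Nr5a2 and 0.410 at Nr1h4, where the median of all promoters was 0.506. The value given for Nr1h4 is that of its downstream window, and its upstream window had 0.370. Before the downstream start of Nr5a2 the ratio was 0.431. At Ppard it was 0.772 before the upstream and 0.251 before the downstream start. At Rxra it also depended on the start. The window before the start at 27532721 of chromosome 2 had a GC content of 81.2% and a ratio of 0.976. That before the first start, at 27531960, had 58.0% and 0.534.

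Of the 10 receptors, 8 passed the filter on low values (at least 1 FPKM in at least 2 mice), while Nr1i3 and Nr5a2 were listed at 0 in all 6 mice. By the median over the mice, on the FPKM scale, the order was Nr1h4 (87.4), Rxra (68.6), Nr1h3 (38.8), Hnf4a (32.7), Nr1i2 (26.7), Nr0b2 (23.5), Esr1 (1.77) and Ppard (1.55). The first 6 lay between percentiles 80.0 and 92.7 of the 9751 genes tested, and Esr1 and Ppard at percentiles 21.0 and 17.7. The ranges over the mice of neighbours in this order overlapped except between Nr0b2 and Esr1: the lowest Nr0b2 value was 8.21 and the highest Esr1 value 3.62 FPKM.

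**Figure D1:**
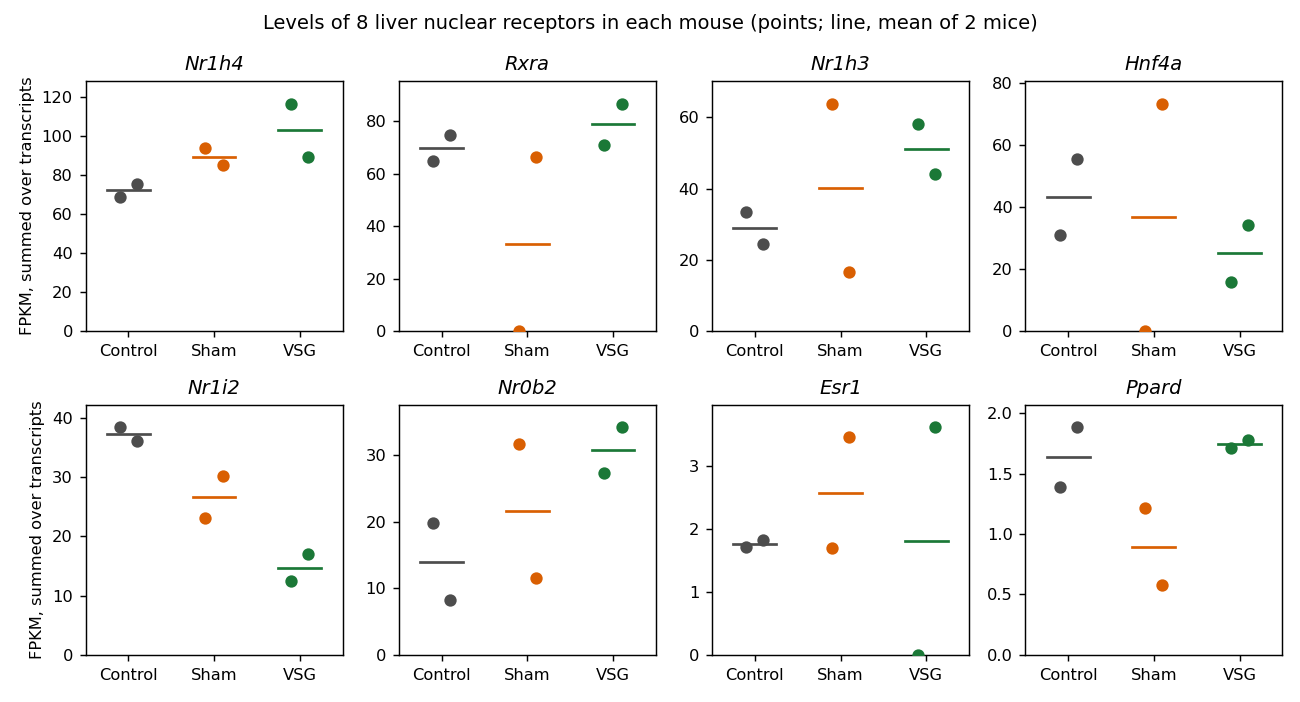
FPKM of the 8 receptors that passed the filter, summed over the RefSeq transcripts of a gene, on a linear axis from 0. Points are mice and lines are means of 2 mice. For Nr1i2 the Control mice (38.4 and 36.1), Sham mice (23.2 and 30.2) and VSG mice (12.5 and 17.0) do not overlap, while Rxra and Hnf4a had 1 Sham mouse listed at 0.

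No receptor passed the test in any comparison. With limma on log2(FPKM + 1) and a false discovery rate of 10%, 0 of the 8 tested receptors were called between Sham and Control mice, where 0.308% of all genes were called, 0 between VSG and Sham mice (0.0513% of all genes) and 0 between VSG and Control mice (0.287%). At an unadjusted p under 0.05, the numbers were 0, 1 and 1 of 8, beside 11.0%, 4.86% and 9.60% of all genes, and Nr1i2 was that gene both times. In 3 of 8 receptors the values of Sham and Control mice did not overlap (46.0% of all genes), in 3 of 8 those of VSG and Sham mice (28.4%), and in 4 of 8 those of VSG and Control mice (48.7%). With 2 mice in each group, an exact permutation test of a single gene cannot give a p below 0.33. The p-values here rest only on the spread of these mice within groups. That spread is pooled over the 3 groups and drawn towards a trend over all genes. In such whole-liver samples, fewer cells of a type and less RNA per cell cannot be told apart. Control mice enter 2 of the comparisons, as do Sham and VSG mice, so the 3 comparisons are not independent.

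**Figure D2:**
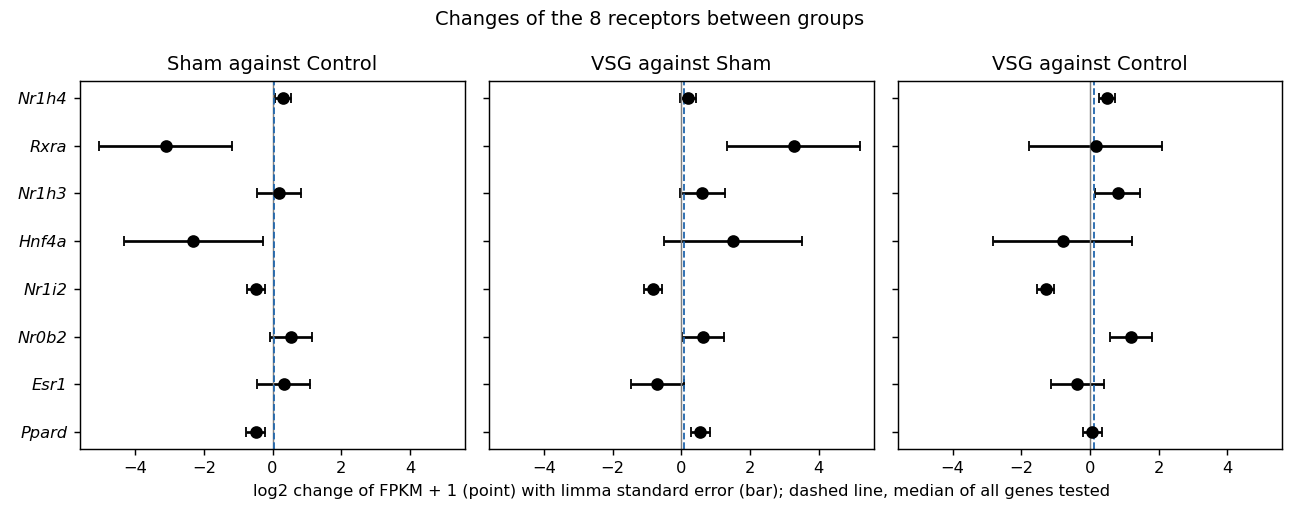
Difference of log2(FPKM + 1) between groups for the 8 receptors (points), with the standard error of limma (bars). The dashed line marks the median of all 9751 genes, which was 0.03, 0.08 and 0.12 from the left panel to the right. Nr1i2 had the largest difference relative to its error in VSG against Control mice (-1.29 with an error of 0.25), and the bars of Rxra and Hnf4a are wide because 1 Sham mouse was listed at 0.

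PXR (Nr1i2), the receptor through which foreign compounds and bile acids raise Cyp3a genes, was lowest in the VSG mice. Its summed level was 38.4 and 36.1 FPKM in the Control mice, 23.2 and 30.2 in both Sham animals, and 12.5 and 17.0 after VSG. The 3 groups did not overlap, with both Sham mice between the Control and the VSG mice. The means were 37.2 ± 1.64, 26.7 ± 5.01 and 14.7 ± 3.15 FPKM (SD, n = 2 each). On the log2 scale, VSG mice lay 1.29 below Control mice, a difference of -1.29 with an SE of 0.25 (limma, unadjusted p = 0.00376, adjusted p = 0.306), and -0.82 from Sham mice (SE 0.25, limma unadjusted p = 0.0233, adjusted p = 0.941). Sham mice differed from Control mice by -0.48 (SE 0.25, limma adjusted p = 0.556). Leaving out any 1 mouse kept the difference of VSG from Control mice between -1.50 and -1.09, and with a correction for transcript length it was -1.45. It did not pass the false discovery rate under any of these settings.

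The order of the groups was less even by transcript. NM_010936, which made up 60.8 to 100% of the gene, was listed at 30.5 and 30.5 FPKM in Control mice, 14.1 and 24.4 in Sham mice and 8.52 and 17.0 in VSG mice. Here the Sham and VSG mice overlapped, since Sham mouse 1 lay below VSG mouse 2. NM_001098404 was listed at 7.90 and 5.52 in Control mice, 9.07 and 5.81 in Sham mice and 3.99 and 0 in VSG mice. Both VSG mice were below the other 4 for this transcript, although the division of reads between transcripts that share exons is itself an estimate. The difference of NM_010936 between VSG and Control mice was -1.27 (SE 0.42, limma unadjusted p = 0.0309, adjusted p = 0.541), and 1 of the 10 tested transcripts reached an unadjusted p under 0.05 in that comparison, beside 8.32% of all 11511 transcripts. The counts were 0 of 10 in Sham against Control mice (10.2% of all transcripts) and 1 of 10 in VSG against Sham mice (4.96%), the latter for Esr1.

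CAR (Nr1i3), the receptor behind the induction of Cyp2b10, had 3 transcripts, all listed at 0 in all 6 mice. Its gene body overlaps Tomm40l on the opposite strand, and 6 of 81 genes of ribosomal proteins were likewise listed at 0 in every mouse. The 0 of Nr1i3 is therefore given as listed. It was also in neither of the authors' 2 comparison tables of transcripts, so that no count stood beside the FPKM.

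The genes known to respond to PXR and CAR were read from a list of 18, of which 17 were tested. In Sham against Control mice 1 was called lower and 0 higher, with a median log2 difference of -1.44 where all genes had 0.03, and in VSG against Sham mice 0 were called, with a median of 2.08 beside 0.08. Without Sham mouse 2 the second median was 1.20, and without VSG mouse 2 it was 1.12. Cyp3a11, the main Cyp3a enzyme under PXR, was listed at 1603 and 1293 FPKM in Control mice, 48.6 and 7.32 in Sham mice and 100.1 and 828 in VSG mice. Its 2 VSG mice thus lay far apart, both above the Sham mice and below the Control mice. Cyp2c29, an epoxygenase, was listed at 339 and 483 FPKM in Control mice, 41.5 and 11.2 in Sham mice and 123 and 424 in VSG mice. The receptor and these target genes did not take the same order of groups: Nr1i2 was lowest in VSG mice and Cyp3a11 and Cyp2c29 in Sham mice.

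The called genes of that list were Cyp2b10 and Cyp3a25. Cyp2b10 was listed at 8.46 and 8.81 FPKM in Control mice, 0.0389 and 0.00900 in Sham mice and 0.135 and 0 in VSG mice. It was lower than in Control mice by a log2 difference of -3.23 in Sham (limma adjusted p = 0.0238) and of -3.18 in VSG mice (limma adjusted p = 0.0281), on a scale where 1 was added to each value. Cyp3a25 was listed at 0 in both Control mice, at 60.5 and 35.1 in Sham mice and at 114 and 724 in VSG mice. It was called higher in VSG than Control mice (limma adjusted p = 0.0943), a call that rests on the 0 of both Control mice. No fold is given against a group listed at 0, and with values of 0 as missing no difference from Control mice could be estimated. The paper gives the other direction, naming Cyp3a25 among Cyp genes that were lower in Sham than Control mice and reversed after VSG. Cyp2b10 was no longer called in either comparison with a pseudocount of 0.1 (limma adjusted p = 0.152 and 0.191), with a replicate block (0.150 and 0.172) or without either Control mouse (0.190 to 0.374), nor in VSG against Control mice without either VSG mouse (0.131 and 0.159) or with values of 0 as missing (0.167). Cyp3a25 lost its call under 10 of the alternatives, among them each mouse left out except VSG mouse 1, with a limma adjusted p between 0.101 and 0.517. In Sham against Control mice, where it was not called (limma adjusted p = 0.172), it was called higher with a pseudocount of 0.1 (0.0816), with only the 2 groups in the fit, and without either VSG mouse (0.0856 and 0.0850).

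**Figure D3:**
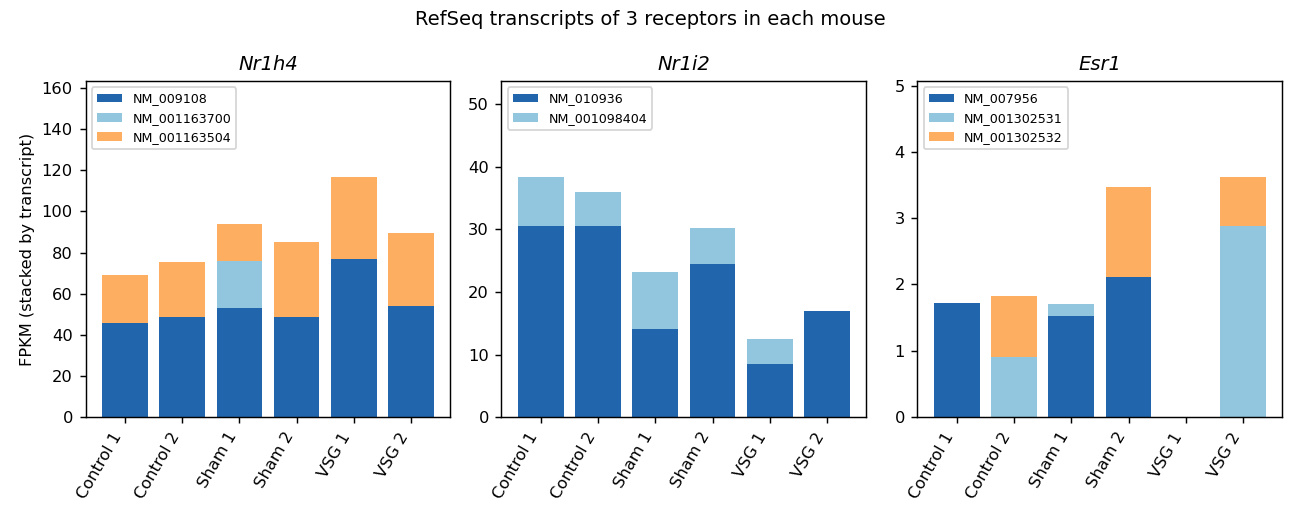
FPKM of each RefSeq transcript of Nr1h4, Nr1i2 and Esr1 in each mouse, stacked so that the height is the summed level of the gene. For Nr1h4 the third transcript, NM_001163700, appears only in Sham mouse 1 (22.9 FPKM), the summed height of Nr1i2 is greatest in Control and smallest in VSG mice, and no Esr1 transcript is common to all mice.

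FXR (Nr1h4), the bile acid receptor, was the most abundant member. It was listed at 68.9 and 75.7 FPKM in Control mice, 93.8 and 85.4 in Sham mice and 117 and 89.4 in VSG mice. Both Sham mice and both VSG mice lay above the Control mice, and VSG and Sham mice overlapped. The means were 72.3 ± 4.77, 89.6 ± 5.98 and 103 ± 19.4 FPKM (SD, n = 2 each). The log2 difference of VSG from Control mice was 0.49 (SE 0.23, limma adjusted p = 0.591), that of Sham from Control mice 0.31 (adjusted p = 0.652) and that of VSG from Sham mice 0.19 (adjusted p = 0.963). A correction for transcript length brought the first to 0.29.

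Nr1h4 was read from 2 transcripts in every mouse, NM_009108 at 45.7 to 76.8 FPKM and NM_001163504 at 18.0 to 40.0 FPKM. NM_009108 made up 56.4 to 66.3% of the gene. Sham mouse 1 differed from the others in that NM_001163700 was listed there at 22.9 FPKM and at 0 elsewhere, while NM_001163504 was lowest in the same mouse at 18.0. Of the 10 transcripts tested, 0 were called in any comparison (0.347%, 0.0782% and 0.217% of all transcripts in Sham against Control, VSG against Sham and VSG against Control mice).

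Shp (Nr0b2), the repressor induced by FXR, was listed at 19.8 and 8.21 FPKM in Control mice, 31.7 and 11.5 in Sham mice and 27.3 and 34.1 in VSG mice. Both VSG mice lay above both Control mice, and the Sham mice spanned most of the range. The log2 difference of VSG from Control mice was 1.19 (SE 0.61, limma adjusted p = 0.631), and the means were 14.0 ± 8.21 and 30.7 ± 4.84 FPKM (SD, n = 2 each). The Sham mean of 21.6 ± 14.3 FPKM rested on 1 high mouse: the difference of Sham from Control mice, 0.55, was -0.15 without Sham mouse 1, and that of VSG from Sham mice, 0.64, was -0.05 without Sham mouse 2. The transcript is short, at 1132 bp, and the mice in which Nr0b2 was low, Control mouse 2 and Sham mouse 2, were those in which short transcripts were low in general. With the correction for length the difference of VSG from Control mice was 0.89 (SE 0.49), and the part of length in the result was not tested further. The authors' mean normalized count for Nr0b2 was 337 over Control and Sham mice and 516 over Sham and VSG mice. These 2 values are not compared, since the medians over all transcripts counted were 188 and 233. Nr0b2 lay at percentiles 65.2 and 72.1. Between receptors these counts did not follow the order of the FPKM: over Control and Sham mice they were 126 for Ppard, 105 for NM_001163504 of Nr1h4, 27.9 for Nr1i2, 7.76 and 8.10 for 2 transcripts of Nr1h3 and 7.84 for NM_011305 of Rxra. The last 3 lay at percentiles 0.361, 1.16 and 0.551 of the 9978 transcripts counted. The summed median FPKM of Nr1h3 and Rxra lay at percentiles 86.2 and 91.3 of the genes tested, so single transcripts stand here beside whole genes. NM_011305 was listed at 0 FPKM in all mice but Sham mouse 2, and NM_001290481, which carried most of Rxra, had no count. For Nr1h3, NM_013839 (7.76) was listed at 0 FPKM in all mice. NM_001177730 (8.10) carried all of the Nr1h3 FPKM. The cause of its low count beside that FPKM was not tested.

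**Figure D4:**
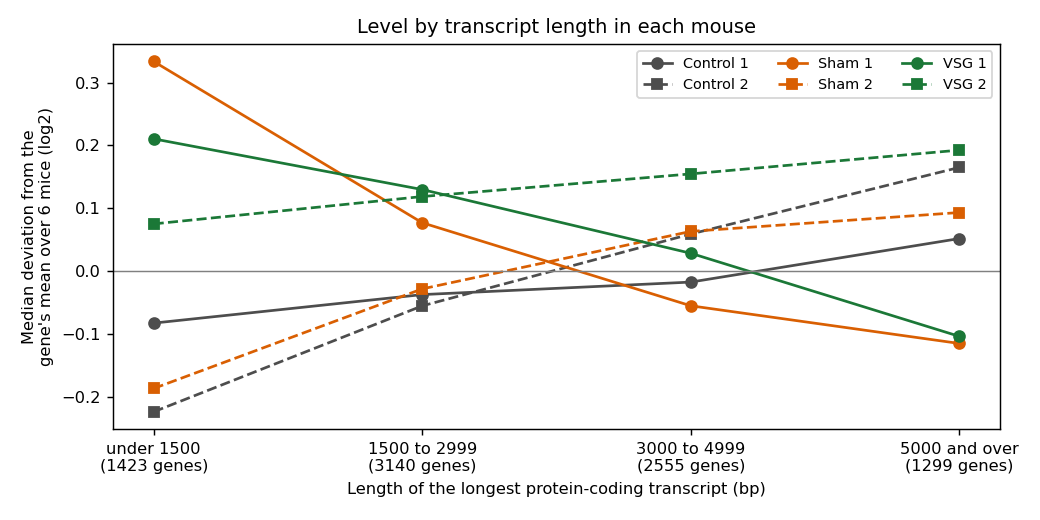
Median deviation of genes from their mean over the 6 mice, in log2(FPKM + 1), by the length of the longest protein-coding transcript, with 1 line for each mouse. Sham mouse 1 goes from 0.33 in genes under 1500 bp to -0.11 in genes of 5000 bp and over, and VSG mouse 1 from 0.21 to -0.10, whereas Control mouse 2 goes from -0.22 to 0.16.

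The genes around this pair were read from chosen lists. Of the targets of FXR, 6 of 7 were tested and 0 called in any comparison. All genes had median log2 differences of 0.03, 0.08 and 0.12 in Sham against Control, VSG against Sham and VSG against Control mice. Those of the FXR targets were -0.71, 0.67 and 0.31. With 1 mouse left out they ranged from -0.71 to -0.41, the latter without Sham mouse 1, from 0.41 without VSG mouse 2 to 0.87 without VSG mouse 1, and from 0.08 without Control mouse 1 to 0.52 without Control mouse 2. That list includes Nr0b2 itself. Slc27a5, which activates bile acids for conjugation, was listed at 342 and 314 FPKM in Control mice, 121 and 175 in Sham mice and 181 and 308 in VSG mice. Baat, which then joins them to taurine or glycine, ranged from 89.4 to 133 FPKM, and its groups lay close together in comparison. Of the 4 bile acid genes repressed through Shp, all tested, 0 were called. All 4 had a log2 difference of VSG from Sham mice above 0, with a median of 0.997, beside 0.08 over all genes. The median was 0.33 when Sham mouse 2 was left out and was 1.61 when Sham mouse 1 was. Cyp7a1, the rate-limiting enzyme of bile acid synthesis, named after its values were seen, was listed at 2.28 and 2.60 FPKM in Control mice, 0 and 4.58 in Sham mice and 68.3 and 13.2 in VSG mice. Both VSG mice lay above the other 4, with log2 differences of 3.73 from Sham mice (SE 1.08, limma unadjusted p = 0.0184, adjusted p = 0.940) and 3.19 from Control mice (SE 1.08, limma unadjusted p = 0.0322, adjusted p = 0.483). Slc10a1, the bile acid uptake carrier, was listed at 264 and 184, 232 and 205, and 413 and 277 FPKM in Control, Sham and VSG mice, and Cyp27a1, an enzyme of the acidic pathway, at 274 and 213, 136 and 100.1, and 165 and 128. Slc10a1 was thus highest in the VSG mice, and Cyp27a1 highest in the Control mice.

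RXR alpha (Rxra), the partner of these receptors, was listed at 65.0 and 74.7 FPKM in Control mice, 0 and 66.3 in Sham mice and 71.0 and 86.7 in VSG mice. All mice but Sham mouse 1 lay between 65.0 and 86.7 FPKM. The log2 difference of Sham from Control mice was -3.11 (SE 1.93, limma adjusted p = 0.603), and with values of 0 taken as missing it was -0.07 (SE 0.33). When Sham mouse 2 was left out, so that only the 0 remained for the group, Rxra was called lower in Sham than Control mice (log2 difference -6.14, limma adjusted p = 0.0447). Without Sham mouse 1 the difference was also -0.07. NM_001290481 carried 86.9 to 100% of the gene wherever it was above 0, and NM_011305 was listed above 0 only in Sham mouse 2, at 8.68 FPKM.

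HNF4 alpha (Hnf4a), the main factor of hepatocyte identity, was listed at 31.0 and 55.6 FPKM in Control mice, 0 and 73.3 in Sham mice and 16.0 and 34.4 in VSG mice. Sham mice held both the lowest and the highest value, and VSG and Control mice overlapped. NM_008261 was the only one of its 3 transcripts listed above 0. The log2 difference of VSG from Control mice was -0.80 (SE 2.02, limma adjusted p = 0.931). Sham against Control mice gave -2.30, but 0.80 with values of 0 taken as missing, and a call at -5.41 when Sham mouse 2 was left out (limma adjusted p = 0.0959). The authors' mean normalized count was 47.2 over Control and Sham mice and 42.5 over Sham and VSG mice. These lay at percentiles 26.9 and 20.9 of the transcripts counted in each comparison. Of the 12 genes known as HNF4 alpha targets, 11 were tested, and Tat, which breaks down tyrosine, was called lower than in Control mice in both operated groups, with 1376 and 1477 FPKM in Control, 210 and 188 in Sham and 233 and 283 in VSG mice (limma adjusted p = 0.0435 and 0.0661). Its log2 difference stayed between -2.93 and -2.33 in these comparisons under every alternative. The call was lost in both with a replicate block (limma adjusted p = 0.150 and 0.229) and without any 1 of the Control or VSG mice (0.141 to 0.562), with only the 2 groups in the fit in Sham against Control mice (0.145), and without a filter (0.104) or with values of 0 as missing (0.167) in VSG against Control mice. The most abundant genes of that list, Apoa2 and Apoa1 of high-density lipoprotein, were at 7635 to 18471 and 6334 to 11117 FPKM with overlapping groups.

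LRH-1 (Nr5a2), which drives bile acid synthesis genes and Shp itself, was listed at 0 for both its transcripts in all 6 mice. The authors' tables nonetheless gave NM_030676 a mean normalized count of 10.4 over Control and Sham mice and of 14.2 over Sham and VSG mice. These means were low, at percentiles 5.32 and 5.74 of the tables, whose lowest values were 7.57 and 10.1. Reads of Nr5a2 were thus counted in these libraries.

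LXR alpha (Nr1h3), the oxysterol receptor of hepatocytes and macrophages, was listed at 33.4 and 24.4 FPKM in Control mice, 63.8 and 16.6 in Sham mice and 58.0 and 44.1 in VSG mice. The Sham mice again held the highest and the lowest value, and both VSG mice lay above both Control mice. The log2 difference of VSG from Control mice was 0.80 (SE 0.65, limma adjusted p = 0.740), and 0.60 with the length correction. All of it came from NM_001177730, and NM_013839 was listed at 0. The 8 Kupffer cell markers were above 0 in every mouse. Their summed level was 39.1 and 26.0 FPKM in Control, 101 and 93.8 in Sham and 79.7 and 255 in VSG mice. This sum was higher in every operated mouse, whereas Nr1h3 was lowest in Sham mouse 2. Vsig4, Cd5l, Marco, C1qa and C1qb were each higher in every operated mouse than in both Control mice. Clec4f, Timd4 and Adgre1 were not. Clec4f was at 5.22 and 3.53 FPKM in Control mice and 2.11 in Sham mouse 1. The part of Kupffer cells in the Nr1h3 values was not tested. Of the LXR targets 8 of 9 were tested and 0 called. Scd1, the stearoyl-CoA desaturase, was listed at 1123 and 308 FPKM in Control mice, 27.7 and 4.32 in Sham mice and 74.1 and 5.12 in VSG mice, whereas Lpcat3, a phospholipid-remodelling enzyme, stayed between 37.3 and 50.3 FPKM.

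Estrogen receptor alpha (Esr1) was low in liver, at 1.71 and 1.82 FPKM in Control mice, 1.70 and 3.47 in Sham mice and 0 and 3.62 in VSG mice. The groups overlapped in every comparison. Which of its 5 transcripts carried the level differed between mice: NM_007956 made up 100% in Control mouse 1, 0 in Control mouse 2 and 0 in VSG mouse 2, where NM_001302531 made up 79.5%. NM_007956 differed between VSG and Sham mice by a log2 difference of -1.48 (SE 0.55, limma unadjusted p = 0.0432, adjusted p = 0.937), being listed at 1.52 and 2.10 in Sham and 0 in both VSG mice. The summed level showed no such order.

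PPAR delta (Ppard), a fatty acid sensor, was listed at 1.39 and 1.88 FPKM in Control mice, 1.21 and 0.582 in Sham mice and 1.71 and 1.78 in VSG mice. Both Sham mice lay below all 4 others. The log2 difference of VSG from Sham mice was 0.55 (SE 0.28, limma adjusted p = 0.941) and that of Sham from Control mice -0.49 (SE 0.28, limma adjusted p = 0.575). At these levels the added value of 1 FPKM makes the log2 differences smaller than the ratios of the levels. Of the 11 PPAR targets, all tested, 0 were called.

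Across the 6 mice, pairs of receptors differed in how far they moved together. Of all pairs of tested receptors, only those with the strongest correlations of log2(FPKM + 1) are given. The correlation was 0.94 for Hnf4a with Rxra, which share the 0 of Sham mouse 1, and -0.92 for Nr1h4 with Nr1i2. For Nr1h3 with Nr0b2, whose longest transcripts have 1955 and 1132 bp, it was 0.86. These are descriptions over 6 mice that share their group and the depth of their library. Among the 9743 other genes, those most like Nr1i2 were Rnf168 (r = 0.98), a ubiquitin ligase of DNA repair, and R3hcc1l (0.98), and among those most like Nr1h4 was Eif1ax (0.98). Nr0b2 was most like Akr1a1 and Shmt2, and Nr1h3 most like Cox16 and Mrpl2. For Rxra they were Apob and Uri1, both also listed at 0 in Sham mouse 1, for Hnf4a Dhx8 and Arhgef12, for Esr1 Myo1d and Itpripl1, and for Ppard Nae1 and Creg1.

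The other 38 nuclear receptors served as the surrounding family. Of these, 21 passed the filter and 0 were called in any comparison, with median log2 differences of 0.22 in Sham against Control, 0.23 in VSG against Sham and 0.33 in VSG against Control mice, beside medians of 0.03, 0.08 and 0.12 over all genes. The first was -0.11 without Sham mouse 1, with 2 of the 21 called lower, the second 0.03 without Sham mouse 2, and the third 0.59 without VSG mouse 1 and 0.20 without VSG mouse 2. The 8 tested members had medians of -0.14, 0.58 and 0.12. Theirs in VSG against Sham mice was 0.25 without Sham mouse 1 and 0.03 without Sham mouse 2, that in VSG against Control mice was 0.31 or 0.04 when VSG mouse 1 or 2 was left out and -0.05 with median-of-ratios scaling, and that in Sham against Control mice became 0.25 with values of 0 as missing. Nr2f6, an orphan receptor, was the most abundant of the 38, at 32.1 and 26.1 FPKM in Control mice, 39.0 and 41.7 in Sham mice and 35.8 and 44.0 in VSG mice. The Control mice were the lowest of the 6, and Sham and VSG mice overlapped.

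FAIRE peaks gave a readout of the same genes that does not depend on the FPKM. The authors' list of each group combines its 2 mice, so that no value for a single mouse and no test was at hand, and the signal of a peak was used only as its rank within the list. The lists held 42204, 52881 and 44539 peaks in Control, Sham and VSG mice. Within 1000 bp of an annotated start, 9 of the 10 receptors had a peak in Control mice, 10 in Sham mice and 9 in VSG mice. Of the genes that passed the FPKM filter, 90.0%, 89.6% and 91.0% had one, and of all 22219 protein-coding genes 50.8%, 50.7% and 52.1%.

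**Figure D5:**
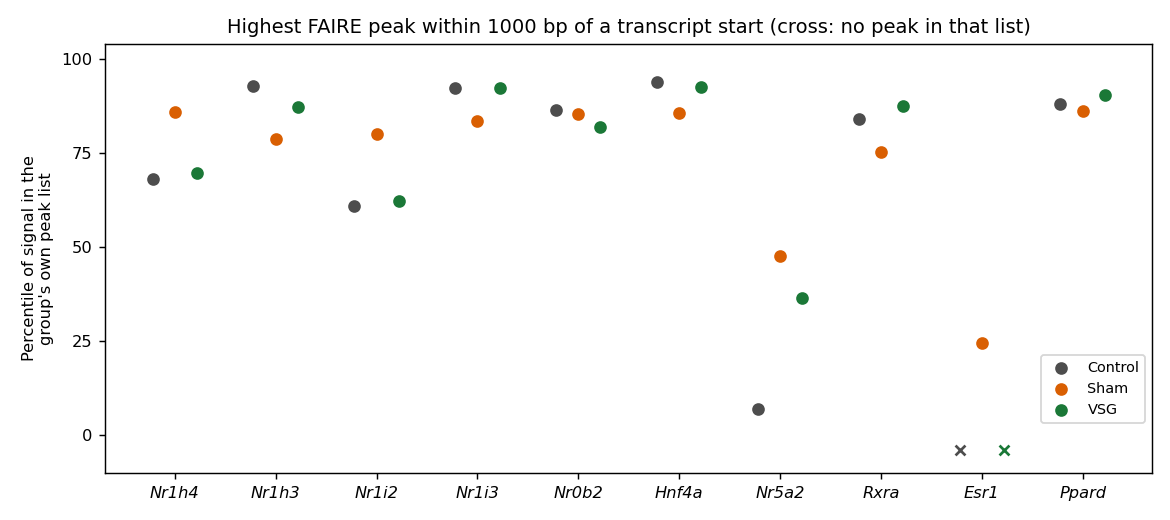
Percentile, within the list of its group, of the FAIRE peak with the highest signal within 1000 bp of any annotated start of a receptor, and a cross where the list had none. All but Nr5a2 and Esr1 lie above percentile 60 in all 3 lists, Esr1 has a peak only in the Sham list (24.5), and Nr5a2 has its weakest peak in the Control list (7.03).

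The start of Nr1i3 lay under a peak in all 3 lists, at percentiles 92.2, 83.4 and 92.2 of the Control, Sham and VSG lists, although its RNA was listed at 0. In Sham mice that peak was the longest, with 1403 bp against 635 and 515 bp. At Nr1i2 the start was covered in all lists, at percentiles 61.1, 80.0 and 62.3 in Control, Sham and VSG mice, with the middle level of RNA in the Sham mice. The start of Nr0b2 lay in a long peak, of 1313, 1117 and 1244 bp, at percentiles 86.4, 85.3 and 82.0, and both copies of TCAAGG printed above lie within it in each list. Nr1h4 had peaks over both of its starts in each list. The upstream start ranked at 68.0, 85.9 and 69.7 and the downstream one, whose sequence is printed above, at 41.1, 65.6 and 62.1.

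The remaining receptors with a covered start were Nr1h3, Hnf4a, Rxra and Ppard. Nr1h3 ranked at percentiles 92.8, 78.7 and 87.3, and Ppard at 88.1, 86.2 and 90.5 in Control, Sham and VSG mice. Hnf4a was covered at its start at position 163372923 of chromosome 2 (percentiles 93.8, 85.7 and 92.7) and at the far upstream start at 163332544 (73.4, 66.2 and 57.7). A weaker start at 163375819 was covered in the Control list only, at percentile 12.6, with a peak 847 bp away in the Sham list and none within 1000 bp in the VSG list. Rxra had a single long peak over its first start, at percentiles 84.2, 75.2 and 87.6.

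At Nr5a2 and Esr1 no start had a peak in all 3 lists. At Nr5a2 the Control list had 1 peak, 327 bp from the start at 138850207 of chromosome 1, and none at the upstream start at 138857004. The Sham and VSG lists had peaks 83 and 80 bp before that upstream start, at percentiles 47.5 and 36.4, and none at the other. The half-site printed above stands at the edge of these peaks. At Esr1, a peak of 260 bp at chr10:5734414-5734673 covered the starts in the Sham list, at percentile 24.5, and no peak lay within 1000 bp in the Control and VSG lists. Neither peak ranked among the stronger 50% of its list. With those 50% alone, 8 of 10 receptors had a peak in each list. Of the genes that passed the FPKM filter, 79.9%, 78.1% and 81.9% then had one in the Control, Sham and VSG lists. The Sham list was also the longest, and when only the 42204 strongest peaks of every list were used, the Esr1 peak was kept.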

How the data were processed

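RNA-seq and FAIRE-seq of 12 samples, 6 of each, were taken as deposited. The authors aligned reads to mm9 with TopHat2 and estimated FPKM for each RefSeq transcript and mouse with Cufflinks. Per the labels the RNA was enriched for poly(A), whereas the study's methods give depletion of ribosomal RNA. The normalized counts in the authors' 2 comparison tables, a signal averaged over the 4 mice of a comparison, came from HTSeq and DESeq2. Fold changes and p-values in those tables, and 4 lists of variable sites, hold the authors' own comparisons and were not used. FAIRE peaks and their signal were made by the authors with F-seq after alignment with Bowtie, and kept by IDR over the 2 mice of a group. Tool versions were not given in the sources used here.

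FPKM were summed over the transcripts of a gene by RefSeq identifier (34046 of 34933 matched, names from the GRCm38.p6 table), and log2(FPKM + 1) of genes with at least 1 FPKM in at least 2 mice was fitted over all 3 groups with limma 3.58.1 (R 4.3.3), a variance trend and Benjamini-Hochberg adjustment over all genes at 10%. Transcripts were fitted the same way. The fit was tested on simulated data. Starts were those of protein-coding transcripts in GENCODE vM1 (NCBIM37), in place of the planned RefSeq starts. For length, 86.3% of the tested genes had a value, the longest protein-coding transcript. The members, the lists of genes and the naming rule (the members, for each the 2 genes most like it, and of each list the 2 most abundant and any called) were chosen with earlier results of these data known. Some genes that this rule names are not reported here. Python 3.11.15, numpy 2.4.6, pandas 2.3.3, pysam 0.24.0 and matplotlib 3.10.9 were used for the other steps. The alternatives tried were another pseudocount (0.1), no filter, other scalings, only the 2 groups compared, a replicate block, no trend, the most abundant transcript alone, each mouse left out, and other windows and subsets of peaks. Added after seeing the data were values of 0 as missing and the correction for length.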

Additional observations from a re-analysis of the deposited data

How the results depend on the processing

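The number of receptors called remained 0 in all comparisons under each alternative other than leaving out a mouse. Leaving out 1 mouse gave 0 to 2 receptors in Sham against Control and 0 to 1 in VSG against Sham mice for genes, 0 to 1 in each of these for transcripts, and 0 in VSG against Control mice. The calls came without Sham mouse 2, when the group rested on a mouse with Rxra and Hnf4a listed at 0 and the lone mouse was assumed to vary like the others. Over all genes, 30, 5 and 28 were called in Sham against Control, VSG against Sham and VSG against Control mice, and 7 to 62, 0 to 8 and 1 to 39 under the alternatives, or 0 to 158, 0 to 51 and 0 to 34 with 1 mouse left out. For transcripts, 40, 9 and 25 became 7 to 109, 0 to 31 and 0 to 86, or 0 to 195, 0 to 60 and 0 to 41.

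Replicate numbers share only a number, since no label pairs the mice: the difference between mouse 1 and mouse 2 correlated across genes at 0.11 for Control and Sham, 0.06 for Control and VSG and 0.03 for Sham and VSG. With a replicate block, 9, 0 and 10 genes and 0 receptors were called. Genes called over all lists, 2 in Sham against Control and 3 in VSG against Control mice, were 0 and 0 with that block. Those in VSG against Control mice were 1 without a filter and 0 with values of 0 as missing. With a pseudocount of 0.1 the counts hide that Cyp2b10 lost its call in both comparisons and that Cyp3a25 gained one in Sham against Control mice. Leaving out a mouse gave 0 to 4, 0 to 1 and 0 to 2 list genes.

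Of 358 log2 differences of receptors and their transcripts under alternatives, 348 kept their direction and side of the threshold and 10 reversed. With values of 0 as missing, Hnf4a became 0.80 in Sham against Control and -1.60 in VSG against Sham mice, and Esr1 0.41 in VSG against Sham and 0.74 in VSG against Control mice. Nr1h4 in VSG against Sham mice became -0.048 with quantile normalization. In VSG against Control mice Ppard became -0.061 with median-of-ratios scaling, -0.028 with quantile normalization and -0.040 with the length correction, and Rxra -0.032 with median-of-ratios scaling, which moved the median of all genes from 0.12 to -0.04. NM_001163504 of Nr1h4 became -0.036 in Sham against Control mice with that scaling.

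Leaving out 1 mouse gave, in Sham against Control mice, -0.035 to 0.69 for Esr1, -5.41 to 0.80 for Hnf4a, -0.15 to 1.24 for Nr0b2, -0.75 to 1.13 for Nr1h3, -0.16 to 0.40 for NM_001098404 and -0.46 to 0.54 for NM_001163504. In VSG against Sham mice it gave -1.80 to 0.41 for Esr1, -1.60 to 4.62 for Hnf4a, -0.053 to 1.33 for Nr0b2, -0.33 to 1.55 for Nr1h3 and -0.0019 to 0.38 for Nr1h4, and in VSG against Control mice -1.47 to 0.74 for Esr1 and -0.070 to 0.20 for Ppard. The cause of these changes was not tested, other than that the same values for Hnf4a without Sham mouse 1, and for Esr1 without VSG mouse 1, came with values of 0 as missing. The summed level of Nr1i2 kept its direction in every comparison under every alternative run. The peak counts of 9, 10 and 9 receptors ranged from 8 to 9, 8 to 10 and 8 to 9.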

Other observations

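The corepressors and coactivators through which these receptors act were read from a list of 18, of which 13 were tested and 0 called in any comparison. Hdac3, the deacetylase of the corepressor complex, was listed at 10.5 and 11.3 FPKM in Control mice, 10.7 and 14.4 in Sham mice and 14.1 and 16.9 in VSG mice. Ncor1, the corepressor that carries it, was listed at 7.83 and 6.55 in Control mice, 1.45 and 4.25 in Sham mice and 5.77 and 4.48 in VSG mice. Both Sham mice were below all others for Ncor1, with a log2 difference from Control mice of -1.19 (SE 0.42, limma unadjusted p = 0.0363, adjusted p = 0.417), and for Hdac3 the groups overlapped only between Sham and the others.

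In the gene bodies and the 5 kb on either side, the lists of Control, Sham and VSG mice held 10, 16 and 7 peaks at Nr1h4, 11, 12 and 13 at Nr1i2, 19, 23 and 23 at Rxra, 18, 16 and 14 at Hnf4a and 18, 19 and 16 at Nr5a2. The Sham list was longer in general, with 52881 peaks. Esr1, the longest of the 10 genes with 394022 bp, held 6, 6 and 4 peaks.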
